A study of Mus musculus with 2 samples.

Results

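C/D box small nucleolar RNAs (snoRNAs) were examined as a source of small RNA in 2 populations of mouse spleen cells. Their fragments were the sequenced tags identical, in sense, to an annotated snoRNA transcript whose gene symbol begins with Snord, and to no miRNA hairpin. Of 1858314 distinct tags in the series, 2397 met this rule, 1522 in the first library and 1673 in the second, and they were compared with 97 annotated Snord genes. Spleen cells of the C57BL/6J strain that carried CD11c, an integrin abundant on dendritic cells, were enriched on beads and then sorted, to over 95% purity, by how much Ia they carried on their surface. Ia is a mouse MHC class II molecule, and the groups are called Ia_high and Ia_low. Both are labelled as dendritic cells, the main antigen-presenting cells of the spleen. The labels give no genotype change, treatment, age or number of animals, and 1 library of total RNA was sequenced from each group, so no difference below has a replicate check and none was tested between groups. RNA under 30 bases had been taken from a gel, yet the deposited tags ran from 18 to 44 nt.

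C/D box snoRNAs are stable nucleolar RNAs, most of which guide 2'-O-methylation of ribosomal RNA by pairing with it just upstream of a D box or of its internal copy, the D' box. The C box near the 5' end and the D box near the 3' end are bound by Nop56, Nop58, Snu13 and the methyltransferase fibrillarin. Most mammalian C/D box snoRNAs are cut from introns of host genes, many of which encode ribosomal proteins or translation factors. Shorter fragments of these RNAs are found in small RNA libraries of many tissues.

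The sequences below show, for the genes the results turn on, which stretch of the snoRNA was sequenced. Transcripts are from the GENCODE M21 annotation of GRCm38 and fragments are the tags themselves, all written 5' to 3' as DNA, with the core letters of the C box (TGATGA) and the letters of the D box (CTGA) in capitals wherever they occur. Snord57 lies at chr2:130278016-130278087 on the plus strand, in Nop56, where it is an intron in the spliced mRNA and exonic in retained-intron transcripts. Snord93 lies at chr5:23852210-23852280 (plus, intron of 2700038G22Rik), Snord49a at chr11:62603450-62603521 (plus, intron of 2410006H16Rik) and Snord104 at chr11:106500993-106501062 (plus, in no host gene). Snord118, also called U8, lies at chr11:69073427-69073561 (plus, in no host gene), and Snord45c at chr3:153912125-153912204 (minus, in an annotated exon of Rabggtb).
Snord57 transcript: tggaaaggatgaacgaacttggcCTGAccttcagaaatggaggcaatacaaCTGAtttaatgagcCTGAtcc
Snord57 main fragment: ggaaaggatgaacgaacttggcCTGAcc
Snord93 transcript: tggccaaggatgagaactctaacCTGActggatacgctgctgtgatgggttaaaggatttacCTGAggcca
Snord93 main fragment in Ia_high: ggccaaggatgagaactctaacCTGAct
Snord93 main fragment in Ia_low: ggccaaggatgagaactctaacCTGAc
Snord49a transcript: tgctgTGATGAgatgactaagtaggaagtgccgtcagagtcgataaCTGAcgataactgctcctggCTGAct
Snord49a main fragment in Ia_high: tgctgTGATGAgatgactaagtagg
Snord49a main fragment in Ia_low: tgctgTGATGAgatgactaagtaggaag
Snord104 transcript: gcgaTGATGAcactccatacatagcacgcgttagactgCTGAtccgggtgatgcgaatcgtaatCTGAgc
Snord104 main fragment: ccgggtgatgcgaatcgtaatCTGAgc
Snord118 transcript: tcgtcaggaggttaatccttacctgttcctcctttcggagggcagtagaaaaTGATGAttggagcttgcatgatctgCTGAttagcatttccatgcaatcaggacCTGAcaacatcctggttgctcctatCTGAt
Snord118 main fragment: gaaaaTGATGAttggagcttgcatgatc
Snord45c transcript: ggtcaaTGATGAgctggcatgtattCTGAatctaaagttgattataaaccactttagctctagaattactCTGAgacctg
Snord45c main fragment in Ia_high: agaattactCTGAgacct
Snord45c main fragment in Ia_low: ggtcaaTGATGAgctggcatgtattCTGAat

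A further set of fragments is shown because their genes had the highest ratios of Ia_low to Ia_high among the better measured snoRNAs. They come from Snord19 (chr14:31016206-31016281, minus, in Gnl3), Snord95 (chr11:48803139-48803206, plus, in Rack1), Snord88a (chr7:44250135-44250224, plus, in 2410002F23Rik), Snord91a (chr11:74905424-74905516, plus, in Tsr1) and Snord32a (chr7:45127382-45127464, minus, in Rpl13a). Each of these tags was the most abundant tag of its gene in Ia_low, and each ends 2 nt past a CTGA.
Snord19 main fragment in Ia_low: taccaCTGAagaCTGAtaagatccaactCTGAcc
Snord95 main fragment in Ia_low: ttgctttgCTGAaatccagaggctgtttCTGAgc
Snord88a main fragment in Ia_low: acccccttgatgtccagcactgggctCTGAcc
Snord91a main fragment in Ia_low: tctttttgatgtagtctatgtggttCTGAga
Snord32a main fragment in Ia_low: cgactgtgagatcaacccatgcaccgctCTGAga

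The Ia_high library held 16388303 reads in 1185709 distinct tags and the Ia_low library 13739811 reads in 758783. The labels name no molecular identifiers, so PCR copies cannot be told from separate molecules. Tags read more than once most often had 4 reads in Ia_high and 9 in Ia_low, and the cause was not tested. Each exact 95% interval below was widened by first dividing the counts by these numbers, and it covers counting error only. Reads also differed in length between the libraries, with a mean of 23.3 nt in Ia_high and 25.6 nt in Ia_low. The labelled cell type was checked on mRNA fragments, counted as distinct tags of 20 to 30 nt. By this measure 6.29% of 7236 genes were called higher in Ia_low and 9.72% lower. Of 5 MHC class II genes, 4 were lower, and their summed level was 12526 and 6721 for every 1000000 fragments. Of the dendritic cell genes, Flt3 gave 163 and 6 fragments (484 and 42.3 on that scale) and Zbtb46 56 and 1 (166 and 7.05). Both were called lower. Itgax, which encodes CD11c, gave 322 and 79 fragments (956 and 557 on that scale), a ratio of 0.583 that was not called. All 4 markers of Ly6C-low monocytes were higher in Ia_low (summed level 1644 and 7412 on the same scale), and all 4 of type 1 conventional dendritic cells were lower (3428 and 698). Markers of B cells summed to 44.5 and 21.2, of T cells to 95.0 and 0, of neutrophils to 56.4 and 275, and of erythroid cells to 5.94 and 0. The T cell sum came from Tcf7 alone, with no fragment of Cd3e or Cd3g. Csf3r gave 44.5 and 254 of the neutrophil sum, while S100a8 had 1 and 2 fragments and S100a9 3 and 1. The makeup of the sorted cells therefore moved together with every comparison below, and its part in them was not tested. In such bulk libraries, fewer cells of a type and less RNA per cell cannot be told apart.

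C/D box snoRNA fragments made up a larger share of the Ia_low library. They took 265282 reads in Ia_high, or 1.62% of all reads (exact 95% interval 1.61 to 1.63%), and 399777 reads in Ia_low, or 2.91% (2.88 to 2.94%). The share was 1.80 times as large in Ia_low (1.78 to 1.82). A few sequences carried most of this signal: 10 tags held 56.7% of the Snord reads in Ia_high and 51.9% in Ia_low, and the 28-nt Snord57 tag alone held 28.1% and 17.6%. The libraries largely shared their sequences, since the 798 tags found in both held 97.5% of Snord reads in Ia_high and 95.4% in Ia_low. Against miRNA hairpin reads, which made up a smaller share of Ia_low (ratio 0.557), the ratio of Snord reads was 3.23 (3.19 to 3.26).

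Levels of single genes were given as reads for every 1000000 in the library (RPM), counting tags that matched exactly 1 Snord gene. Fragment reads were not divided by the length of the snoRNA, so the order of genes is one of fragments and not of the parent RNAs. Of the 97 Snord genes, 78 had reads, 60 reached a mean of 10 RPM and counted as measured, and 18 lay below it. The 19 genes without a read were 17 copies of Snord116l, Snord64 and Snord107. With reads counted singly, this allows up to 0.183 RPM in Ia_high and 0.218 RPM in Ia_low. That bound was not widened for copies and is too tight if reads are copies. A tag with the most common number of reads already stands at 0.244 RPM in Ia_high and 0.655 RPM in Ia_low. Among the 60 measured genes, 27 (45%) were higher in Ia_low by at least 2-fold with an interval that excluded 1. By the same thresholds 27.8% of 306 small RNA genes of all classes were higher, and 23.6% of the 246 that are not Snord genes. Those 246 were counted from tags of 1 small RNA gene alone, while Snord genes kept tags shared with genes of other names. They include 145 miRNA genes, of which 4 were higher. Of 65 genes annotated as snoRNA without a Snord symbol, 35 were higher and 2 lower. Other small RNA classes outside miRNA were also often higher: 7 of 9 H/ACA snoRNA genes, 3 of 5 scaRNA genes, 6 of 9 snRNA genes and 7 of 10 mitochondrial tRNA genes, so a higher level in Ia_low was not particular to C/D box snoRNAs. A lower level was called for 1 measured gene (1.67%), Snord13, against 27.1% of all small RNA genes and 33.3% of those that are not Snord genes, and 32 Snord genes were neither. The median Snord ratio was 1.93 (log2 0.95) and the range 0.244 to 46.7, while the median log2 ratio over all small RNA genes was -0.04 and that of 145 miRNA genes -1.13. Called miRNA genes were mostly lower, 80 against 4 higher, so shares of the reads moved in opposite directions for these classes. With all Snord reads as the total, 78 genes passed the minimum level, of which 18 were higher and 7 lower. Over the 60 measured genes centred on the median Snord gene, 13 were higher and 6 lower.

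**Figure D1:**
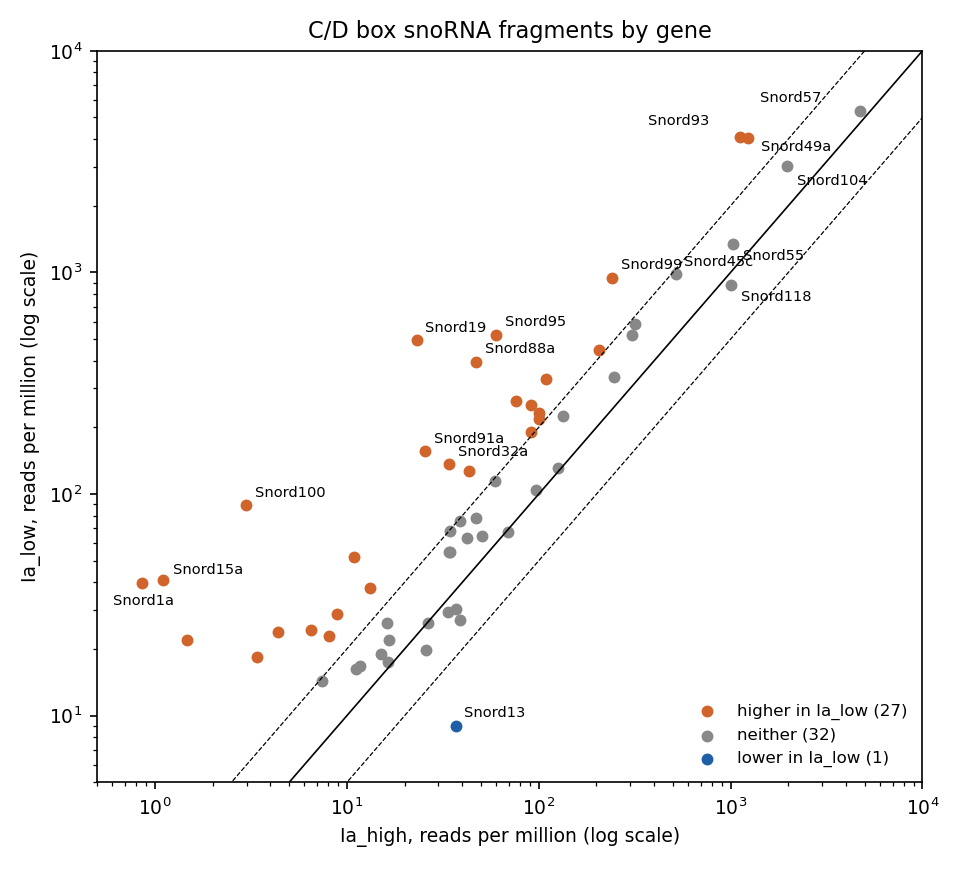
RPM of each of the 60 measured C/D box snoRNA genes in Ia_high (horizontal, log scale) and Ia_low (vertical, log scale), 1 library each. The solid line marks equal levels and the dashed lines a 2-fold difference. Most points lie above the solid line, 27 of them were called higher in Ia_low, and Snord13 is the only gene called lower.

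Snord57, Snord49a, Snord93 and Snord104 together held 55.8% of Snord reads in Ia_high and 56.7% in Ia_low. Snord57 was the most abundant, with 77445 reads in Ia_high (4726 RPM) and 73619 in Ia_low (5358 RPM), a ratio of 1.13 (interval 1.10 to 1.16). It hardly differed between the libraries while the Snord total did. Snord104 had 32082 and 41502 reads, a ratio of 1.54 (1.49 to 1.60). Snord49a was 3.27-fold higher in Ia_low (3.15 to 3.39), with 20234 reads in Ia_high and 55400 in Ia_low. Snord93 was 3.65-fold higher (3.51 to 3.79), with 18329 and 56024 reads, but this value rests on tags that a second locus also holds, as described below.

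The other abundant genes lay mostly above equality without reaching 2-fold. Snord55 had 16785 and 18540 reads (ratio 1.32, 1.25 to 1.39). Snord118 had 16481 reads in Ia_high and 12081 in Ia_low, a ratio of 0.874 (0.821 to 0.930). Snord45c had 8494 and 13449 reads (1.89, 1.77 to 2.02). Snord66 (1.83), Snord69 (1.72) and Snord2 (1.36) were likewise higher in Ia_low by less than 2-fold. Snord99, from an exon of the noncoding host Snhg12, was 3.92-fold higher (3.62 to 4.26) with 3960 and 13025 reads, and Snord85 2.17-fold (1.95 to 2.40) with 3368 and 6114. The genes Snord14c and Snord14d are nearly identical, and tags that matched both, counted in the Snord total alone, gave 17823 and 13618 reads (0.911, 0.859 to 0.966).

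At a mean of 50 RPM or more, the highest ratios belonged to Snord19, Snord95, Snord88a, Snord91a and Snord32a, besides Snord99. Snord19 had 379 reads in Ia_high and 6799 in Ia_low, a ratio of 21.4 (17.3 to 26.8). Snord95 had 984 and 7188 reads (8.71, 7.54 to 10.1). Snord88a had 776 and 5445 reads (8.37, 7.11 to 9.89). Snord91a had 421 and 2144 (6.07, 4.81 to 7.72) and Snord32a 561 and 1880 (3.997, 3.21 to 4.99). Fragments over 30 nt, a length that the Ia_low library held more of in general, made up 84.1% of the Ia_low reads of Snord19, 60.0% of Snord95, 96.8% of Snord88a, 67.9% of Snord91a and 81.1% of Snord32a. With tags of 18 to 30 nt alone, the ratios were 4.65, 3.67, 1.94, 2.02 and 0.77 in that order, so the direction of Snord32a turned. Over the same lengths, 18 of the 27 higher genes remained higher, and Snord32a and Snord88a were among the 9 that did not.

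Tag length separated the libraries within nearly every gene. The mean length of Snord reads was 26.2 nt in Ia_high and 27.5 nt in Ia_low. Of the 60 measured genes, 54 had longer fragments in Ia_low, with a median difference of 1.36 nt and a range from -0.57 nt in Snord21 to 11.8 nt in Snord32a. Reads of 18 to 20 nt were 10.7% of Snord reads in Ia_high and 1.79% in Ia_low. Reads of 31 nt or longer were 0.559% and 12.1%. Over all reads of the libraries the same classes held 11.7% and 3.603%, and 1.63% and 14.3%, so the difference in Snord lengths moved with the whole library, and how far the gel selection set it was not tested.

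The Snord ratio depended on the length class. It was 0.300 for reads of 18 to 20 nt, 0.910 for 18 to 24 nt, 1.77 for 25 to 30 nt and 38.8 for 31 nt or longer. Snord reads were longer than reads as a whole in both libraries: 79.1% and 89.4% of Snord reads were 25 nt or longer, against 25.97% and 50.5% of all reads. Tags of 27 and 28 nt held 58.3% of Snord reads in Ia_high and 54.1% in Ia_low. At these lengths C/D box snoRNAs supplied 10.8% and 12.4% of every read sequenced.

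**Figure D2:**
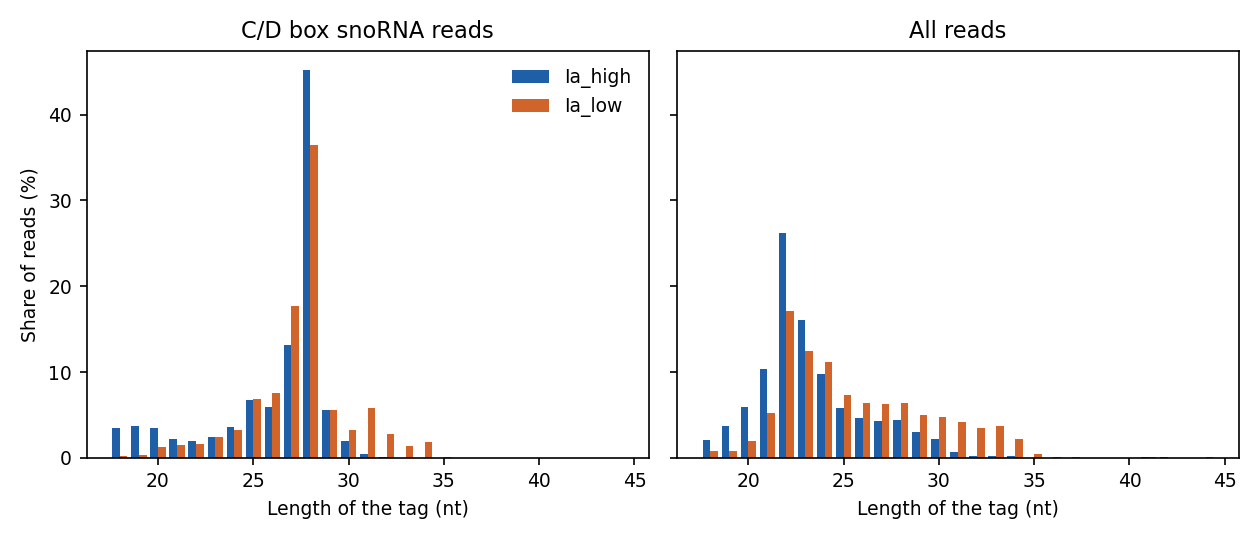
Share of reads (%) at each tag length (nt) among C/D box snoRNA reads (left) and among all reads (right), for Ia_high and Ia_low, 1 library each. Snord reads peak at 28 nt in both libraries while all reads peak at 22 nt, and Ia_low holds more reads above 30 nt in both panels.

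Most fragments came from an end of the snoRNA. A tag was placed at the 5' end when its first base lay within 5 nt of the annotated start, at the 3' end when its last base lay within 5 nt of the annotated end, and otherwise in the middle. The 5' end gave 60.2% of Snord reads in Ia_high (59.9 to 60.6%) and 61.96% in Ia_low (61.5 to 62.4%). The 3' end gave 28.1% and 27.97%, and the middle 11.7% and 10.1%. The libraries thus differed by less than 2 percentage points in each class, and the direction of these small differences changed with the processing. The H/ACA box snoRNAs are the other main family, which lack C and D boxes and guide pseudouridylation. Placement of their fragments differed between the libraries: the 5' end gave 14.7% of their 6534 reads in Ia_high and 79.0% of their 27197 in Ia_low. Reads of 18 to 20 nt were 40.3% and 71.7% of these H/ACA reads.

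Position was a property of each gene and was mostly shared by both libraries. The 5' end gave most reads of 21 measured genes in Ia_high and 23 in Ia_low, 18 of them in both. The 3' end gave most reads of 26 genes in each library, 22 in both, and the middle of 12 and 10, 9 in both. Snord57, Snord93 and Snord55 were read almost wholly from the 5' end and Snord104, Snord66, Snord85 and Snord95 almost wholly from the 3' end. Snord118 was read almost wholly from its middle, where the 28-nt fragment over its C box gave 77.8% of the reads of the gene in Ia_high and 90.8% in Ia_low. Without Snord57 the 5' end share was 44.1% in Ia_high and 53.5% in Ia_low, so this gene set the near equality of the totals.

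**Figure D3:**
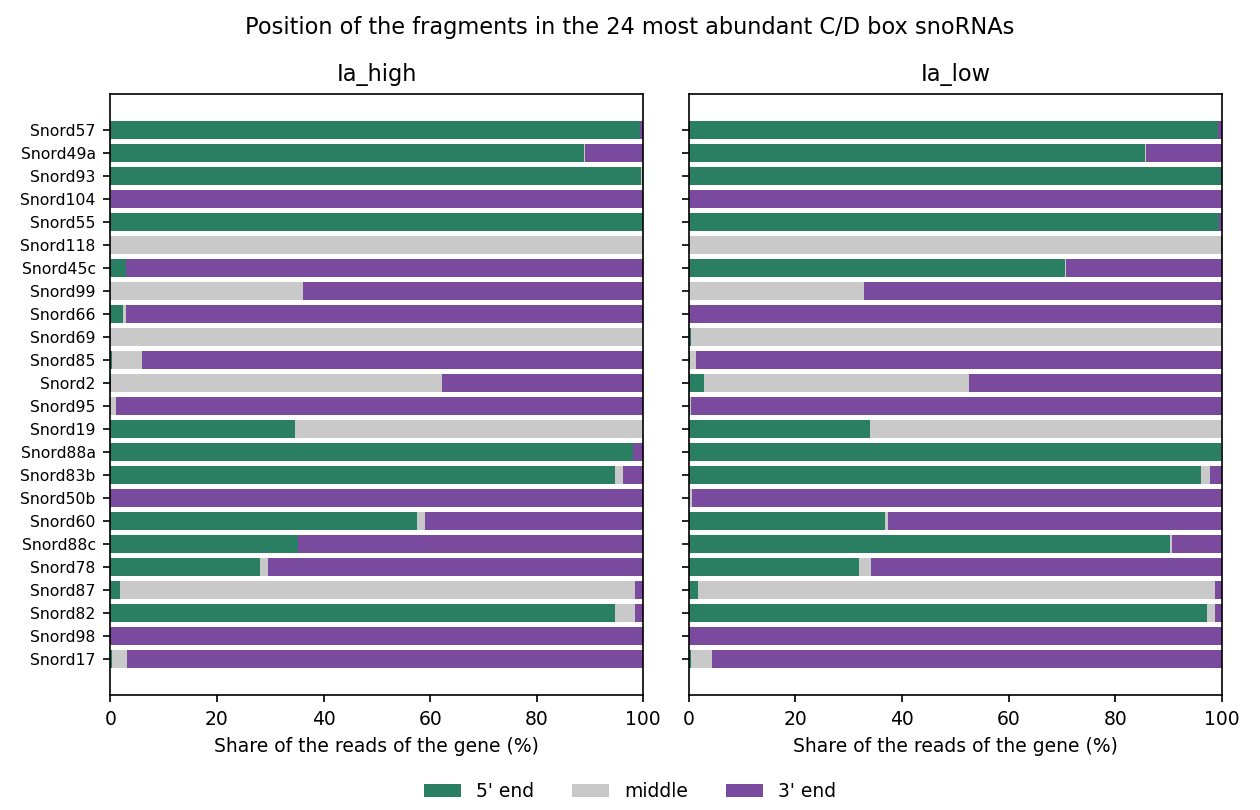
Share (%) of the reads of each of the 24 most abundant measured C/D box snoRNA genes that came from the 5' end, the middle or the 3' end, in Ia_high (left) and Ia_low (right), 1 library each, genes ordered by mean RPM. Most genes keep their pattern in both libraries, and Snord45c goes from 97.1% at the 3' end in Ia_high to 70.6% at the 5' end in Ia_low.

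Some genes changed their main position, and 3 abundant ones, Snord45c, Snord60 and Snord88c, are described here after their values had been seen. The 31-nt 5' fragment of Snord45c had 19 reads in Ia_high (1.16 RPM) and 8530 in Ia_low (621 RPM). Its 18-nt 3' fragment had 3697 reads in Ia_high (226 RPM) and 57 in Ia_low (4.15 RPM). Reads of 18 to 20 nt and of 31 nt or longer also differed between the libraries as a whole, as given above, and their part in this switch was not tested. In tags of 18 to 30 nt the Snord45c ratio was 0.63, against 1.89 over all lengths. In Snord88c the 5' end share was 35.3% in Ia_high and 90.3% in Ia_low, and 88.1% of its Ia_low reads were over 30 nt. Snord60 went the other way, from 57.5% at the 5' end in Ia_high to 62.7% at the 3' end in Ia_low.

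**Figure D4:**
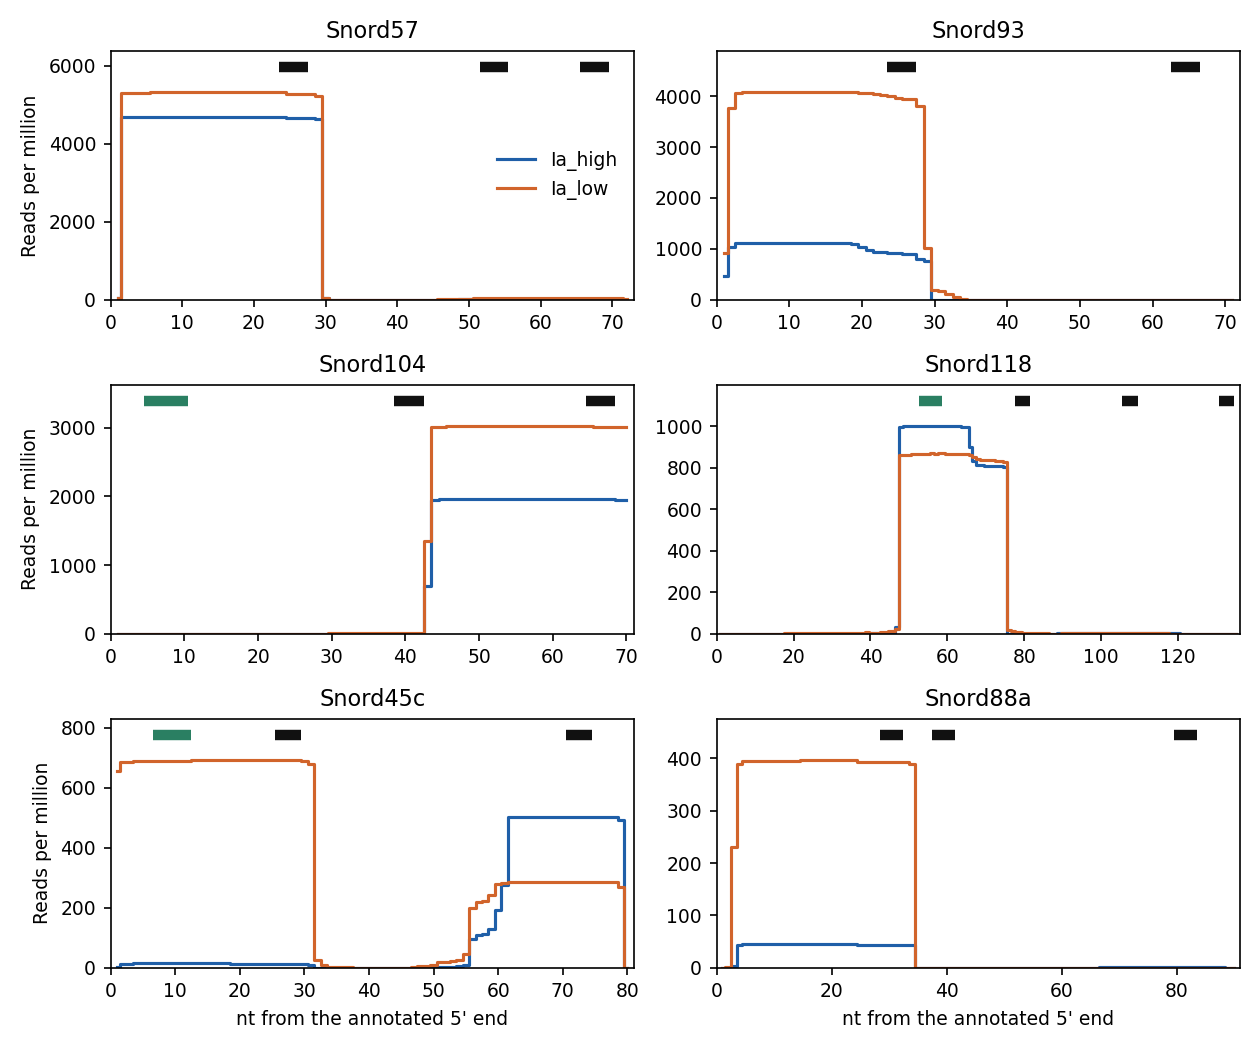
RPM covering each base (vertical) along 6 C/D box snoRNAs, by distance from the annotated 5' end in nt (horizontal), in Ia_high and Ia_low, 1 library each. Green bars mark C box core letters and black bars D box letters. Fragments of Snord57, Snord93 and Snord88a stop just past an internal D box, Snord104 is read from just past one to its 3' end, Snord118 over its C box, and Snord45c from opposite ends in the 2 libraries.

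The core letters TGATGA occurred in 73 of the 97 Snord transcripts (75.3%), 63 of them within the first 15 nt, and in none of 40 H/ACA snoRNA transcripts. CTGA occurred in all 97, in 91 of them within the last 15 nt, in 76 of them at 2 or more places, and in 52.5% of the H/ACA transcripts. Both motifs were searched in the sense strand alone. Of all 28-nt windows of the Snord transcripts, 12.5% hold TGATGA and 48.6% CTGA. The C box letters stood in 32.3% of Snord reads in both libraries, and the D box letters in 69.0% in Ia_high and 73.2% in Ia_low.

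Counted in reads, the 3' ends of the fragments clustered at 1 place relative to these letters. Of all Snord reads, 55.2% in Ia_high and 49.4% in Ia_low ended exactly 2 nt after a CTGA, as did 3.24% of all windows of 18 to 44 nt in the same transcripts. For 3' end reads these shares were 67.1% and 67.0%, a class in which the annotated end itself lies close to the D box. For 5' end reads, whose stop is not tied to an annotated end, they were 56.5% and 43.1%, against 2.63% of windows with such a start. The most abundant tag ended there in 24 of 60 measured genes in Ia_high and in 31 in Ia_low.

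Snord57 carried much of this pattern at the 5' end. Without it, 21.8% of 5' end reads in Ia_high and 44.7% in Ia_low ended 0 to 3 nt after a CTGA, against 59.2% and 60.8% with it and 10.9% of windows. Most of what remained came from Snord93, many of whose tags a second locus also holds. It had 18262 and 55936 5' end reads, of which 80.8% and 92.1% ended in that range. Of 39 measured genes with 5' end reads in both libraries, 13 had most of them end in that range in both, among them Snord57, Snord93, Snord88a, Snord88c, Snord78, Snord60 and Snord45c. The median share over the 39 genes was 0% in both libraries, so the pattern at the 5' end was one of reads and not of most genes. Snord49a and Snord55 did not. No CTGA precedes the end of the main Snord49a fragments, which stopped at base 25, 26 or 28 of the snoRNA. The Snord55 fragments likewise ended at several neighbouring bases. Its 3 most abundant tags begin at base 2 and end at bases 28, 27 and 26. They gave 15.7%, 12.4% and 12.0% of its reads in Ia_high and 18.7%, 15.4% and 14.98% in Ia_low. Tags that begin at base 1 also ended at bases 28 and 27, so these are shares of tags and not of end bases.

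Length and end went together. Among 5' end reads, 0.278% of those of 18 to 24 nt in Ia_high and 0.274% in Ia_low ended 2 nt after a CTGA. At 25 to 30 nt it was 67.7% and 41.9%, and at 31 nt or longer 91.7% and 79.1%. Most 5' end reads of 31 nt or longer therefore stopped 2 nt after a CTGA. Of those of 18 to 24 nt, 96.7% in Ia_high and 95.1% in Ia_low had no CTGA before their end. Few of these short reads could thus have stopped there, and windows of matching length were not set beside these shares. The 5' ends mostly fell on 2 bases: of 5' end reads, 31.2% in Ia_high and 37.8% in Ia_low began at the annotated first base, and 63.5% and 52.4% at the base after it. The 28-nt Snord57 tag, which begins at the latter, gave 74527 of 159789 5' end reads in Ia_high and 70548 of 247686 in Ia_low. It also ends 2 nt after a CTGA, so it weighs on the shares at 25 to 30 nt.

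**Figure D5:**
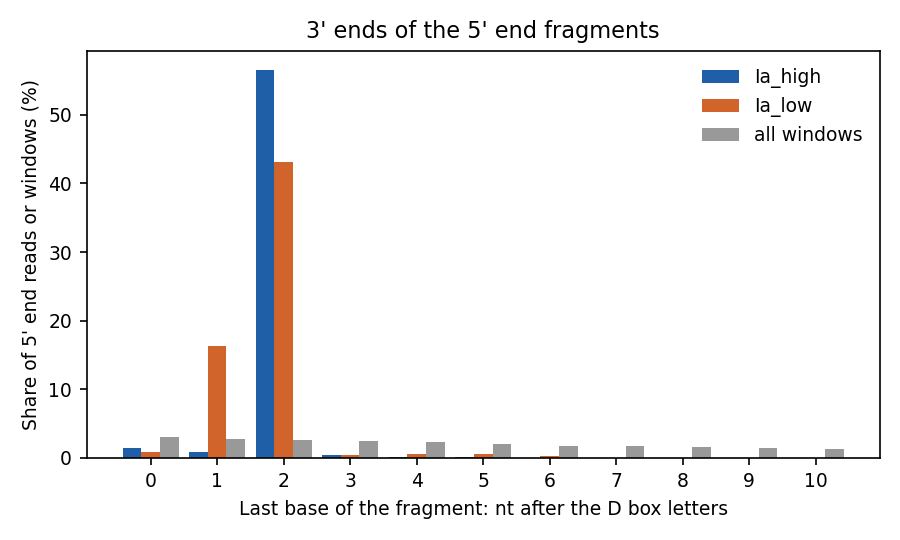
Share (%) of 5' end reads of C/D box snoRNAs by how many nt after the D box letters the fragment ended (0 means that the fragment ends on the last of these letters), in Ia_high and Ia_low, 1 library each, beside all windows of 18 to 44 nt with such a start. The reads pile up at 2 nt (56.5% and 43.1%), with a second bar at 1 nt in Ia_low (16.3%).

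Snord93 ended differently in the 2 libraries. In Ia_high 67.2% of its 5' end reads stopped 2 nt past the CTGA and 3.18% stopped 1 nt past it. In Ia_low 20.3% stopped at 2 nt and 68.6% at 1 nt. The 28-nt fragment had nearly the same reads in both, 6434 and 6259, whereas the 27-nt fragment, shorter by its last base, had 410 in Ia_high and 29075 in Ia_low.

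The 27-nt fragment cannot be assigned to Snord93 alone. Mir3096, annotated as a snoRNA at chr5:23710991-23711061 on the minus strand, differs from Snord93 by 1 substitution, T29A, counted from the 5' end of Snord93, with the Snord93 base first. Tags that stop before base 29 therefore match both loci. Tags of Snord93 alone had 12410 and 13903 reads, a ratio of 1.34 (1.26 to 1.42). Tags of both had 5919 and 42121 (8.49, 8.004 to 9.005), and tags of Mir3096 alone 344 and 1385 (4.80, 3.66 to 6.33). Among tags that tell the loci apart, Mir3096 held 2.70% in Ia_high and 9.06% in Ia_low. The 3.65-fold ratio of Snord93 thus fell short of 2-fold where only its own tags were counted. A similar check on Snord95, whose copy is Gm25296, gave 43 and 4143 reads in tags of Snord95 alone, a ratio of 114.9 (63.2 to 234). The Snord95 tags shared with that copy gave 941 and 3045. Long tags carried most reads of Snord95 alone: its 34-nt tag had 22 and 2205 reads and its 33-nt tag 10 and 1835. With tags of 18 to 30 nt, shared ones included, the Snord95 ratio was 3.67. The ratio of tags of Snord95 alone was not taken within those lengths.

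The main fragment was the same tag in both libraries for 28 of the 60 measured genes. Of the other 32 genes, 28 had the longer main tag in Ia_low. In 39 of the 60 genes the main tag began at the same base in both. Snord57 and Snord104 show the constant case, with 96.2% and 95.8% of Snord57 reads in its 28-nt tag and 63.9% and 55.0% of Snord104 reads in its 27-nt tag. Snord104 also gave a 28-nt tag that began 1 base earlier, with 11269 and 18350 reads.

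Genes were also grouped by known role. Those that act in rRNA processing rather than as plain methylation guides (Snord118, Snord13, Snord22 and the Snord14 copies) numbered 7, of which 4 were measured: none was higher in Ia_low, Snord13 was lower and 3 were neither, with a median log2 ratio of -0.24 against 0.95 for all measured Snord genes. Snord13, which directs acetylation of small-subunit rRNA and has no host gene, had 605 reads in Ia_high (36.9 RPM) and 124 in Ia_low (9.02 RPM), a ratio of 0.244 (0.130 to 0.425). Its fragments had nearly the same mean length in both, 22.8 nt. Snord14e, from Hspa8, had 604 and 416 reads (0.822, 0.578 to 1.15), and Snord22, from Snhg1, 182 and 223 (1.46, 0.858 to 2.44). The main tags of these 4 genes were 21 nt in Snord14e, 24 nt in Snord13, 26 nt in Snord22 and 28 nt in Snord118. Snord reads of 18 to 24 nt had a ratio of 0.910 as a set, and the part of tag length in this contrast was not tested. On the scale of the median Snord gene Snord118 was at 0.45. None of the 19 Snord genes of the imprinted Snrpn region, which are known from brain, had a read. Snord78, Snord93 and Snord95, 3 genes known as sources of small RNA fragments, were all called higher in Ia_low, as were 45% of measured Snord genes, but Snord93 was not called on its own tags (1.34). Snord78 had 1646 and 3194 reads (2.31, 2.002 to 2.67).

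By host gene, the counts of higher genes were spread over the groups, and are to be read against the 45% of all measured Snord genes called higher (27.8% of all small RNA genes). Of 14 measured genes in ribosomal protein hosts, 7 were higher, with a median log2 ratio of 1.23, and of 22 in other protein-coding hosts, 9 (0.85). Of 8 in noncoding hosts outside the Snhg family, 6 were higher (1.70), and of 4 in Snhg hosts other than Snhg1, 3 (1.33), namely Snord99, Snord87 (2.17, 1.87 to 2.51) and Snord50a, with Snord50b at 1.68 (1.46 to 1.92). Every read of Snord50a and Snord50b also matched a snoRNA annotated under another name, so these levels are uncertain. Gas5, a noncoding host, carried Snord78 (2.31), Snord80 (1.93) and Snord47 (1.97), of which the first alone passed 2-fold. Snord32a, Snord34 (1.60) and Snord33 (0.694, 0.480 to 0.983) shared the host Rpl13a and differed in direction. Neither of the measured genes in translation factor hosts, Snord66 in Eif4g1 and Snord2 in Eif4a2, was called. Ratios thus varied within a host as well as between hosts: Snord19 and Snord69 both lie in Gnl3, at 21.4 and 1.72. Snord83b, in Rpl3, was at 3.02 (2.65 to 3.43), Snord60, in the noncoding Rab26os, at 2.76 (2.38 to 3.19), and Snord92, in Wdr43, at 1.51 (1.17 to 1.95).

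mRNA fragments of the proteins that bind C/D box snoRNAs gave little depth. Of the 4 core genes, Nop56, which is also the host of Snord57, had 36 distinct fragments in Ia_high and 34 in Ia_low, or 106.8 and 239.8 for every 1000000 fragments, a ratio of 2.24 (1.36 to 3.69). It was called higher, as were 6.29% of all genes measured this way. Nop58 had 25 and 8 fragments, Snu13 13 and 5, and Fbl, which encodes fibrillarin, 8 and 2, and none of these was called. Of 10 assembly factors 3 were measured and none was called. Few host genes were called: of 44 hosts of measured Snord genes, 35 were measured and 31 of these were neither. Nop56 was higher, and Rabggtb, Rc3h2 and Wdr43 were lower (9.72% of all genes were called lower). The median log2 ratio of the hosts was -0.18, against -0.16 over all genes. Hosts were counted as distinct fragments of 20 to 30 nt, but snoRNAs as reads of all lengths. Depth also varied, from Gnl3 with 28 and 7 fragments (interval 0.219 to 1.39) to Rack1 with 208 and 98 (0.871 to 1.43). Whether hosts followed their snoRNAs was therefore not tested.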

How the data were processed

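The deposited files give, per the labels' groups, the counts of reads per distinct tag, with tag lengths, as left by the authors. Trimming, filtering, aligner and build are not stated in those sources. Every tag (18 to 44 nt) was searched for as an exact sense match in every transcript of GENCODE M21 (GRCm38) with Python 3.11.15, numpy 2.4.6, pandas 2.3.3 and numba 0.67.0. Tags of a miRNA hairpin were dropped (60 and 15 reads). Tags of several Snord genes (8.09% and 4.67% of Snord reads) entered totals alone. In 50.9% and 43.0% of Snord reads the tag also lay in a transcript of another gene, mostly a host transcript. Ratios of RPM carry conditional binomial 95% intervals (scipy 1.17.1). The floor for 0 reads was 3 counts, not widened for copies. With 1 library per group no test was run. On simulated counts for 306 small RNA genes the rule called 92.8% of 2.5-fold changes and none of the unchanged genes. These counts carried the same copy numbers that the intervals divide by and lay above the 10 RPM minimum. They held counting error alone, with no variation between libraries, so they cannot show how often the rule errs on 1 library per group. Named are the 12 most abundant genes, the 6 highest and 6 lowest ratios at 50 RPM or more whose interval excluded 1, and up to 3 genes of each list, in all 30. Members, lists and rules were chosen with earlier results of these data known. Alternatives varied scaling, thresholds, lengths, ends and shared tags.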

Additional observations from a re-analysis of the deposited data

Results flagged for a closer look

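Values outside the exact matches of the Snord rule are given here because they lie above the 3 reads that a count of 0 allows, and no explanation was tested. Tags that matched a C/D box snoRNA only after 1 to 3 bases were taken from their 3' end gave 6008 reads in Ia_high and 14526 in Ia_low, or 2.26 and 3.63 for every 100 exactly matching Snord reads. Their added bases were A alone in 55.2% and 49.9% of these reads and T alone in 3.43% and 1.62%. Snord49a supplied 2037 of them in Ia_high and 10017 in Ia_low (69.0% of that library's), or 10.1 and 18.1 per 100 exact reads of the gene, against 1.62 and 1.31 for the other Snord genes together. A single added A made up 28.7% and 34.8% of the Snord49a reads of this kind and a single added G 49.5% and 30.8%.

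Tags of Mir3096 that Snord93 does not hold gave 344 reads in Ia_high and 1385 in Ia_low. Snord43, which the annotation lists as a miRNA and which therefore was not a member, gave 5603 reads in Ia_high (342 RPM) and 6645 in Ia_low (484 RPM) in 45 tags.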

How the results depend on the processing

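The ratio of the Snord share (1.80) was 3.23 per miRNA hairpin read, 1.72 over distinct tags, 2.09 without tags that also lie in a gene other than a snoRNA, 1.59 for tags of 18 to 30 nt, 1.77 for 25 to 30 nt, 1.63 without tags of snoRNA genes of other names and 2.07 without Snord57. It turned to 0.910 for tags of 18 to 24 nt. The last pair of exclusions, here and below, was chosen after seeing the data. The cause of these shifts was not tested.

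Genes higher in Ia_low (27 of 60 measured) numbered 59 scaled to miRNA hairpin reads, where 72 passed the minimum level, 13 centred on the median Snord gene (60), 13 at a mean of 100 RPM (24), 41 at 1.5-fold, 11 at 4-fold, 16 without tags in other genes, where 34 genes were measured, and 6 in tags of 18 to 24 nt. Genes lower (1) numbered 7 scaled to all Snord reads (78 measured), 6 centred on the median, 0 at 100 RPM, 0 over distinct tags, 6 at 18 to 24 nt, 0 at 25 to 30 nt and 2 without the top tag of each gene. In tags of 18 to 24 nt the ratios of Snord93 (0.65) and Snord32a (0.49) turned, and those of Snord85 (0.56) and Snord78 (0) lay below 1 with too few reads to be measured. Snord32a also turned (0.77) at 18 to 30 nt. Among the 14 called genes of the 30 named, no other turned under the alternatives run, and the other called genes were not followed one by one.

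The 5' end share in Ia_low minus that in Ia_high (1.72 percentage points) was -2.16 over distinct tags, 13.6 without tags in other genes, 2.63 at 18 to 30 nt, -8.97 at 18 to 24 nt, 2.72 at 25 to 30 nt, -1.92 without the top tags, 0.70 with ends within 2 nt, -1.77 without tags of other snoRNA genes and 9.42 without Snord57. The 3' end difference (-0.11) was 0.94, -6.78, 7.04 (18 to 24 nt), 2.46 (top tags), -2.21 (2 nt), 0.68 (10 nt), 1.85 (median over genes), 2.42 and -5.24 under the matching settings. The direction of these small differences was therefore not stable. The difference in the share of 25 nt or longer (10.3) was 17.7 over distinct tags, 20.6 without the top tags, 8.81 without tags of other snoRNA genes and 16.4 without Snord57.

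The planned match to 10 nt of genomic flank was not run, since no genome sequence was used here. No paired analysis was possible because each group has 1 library. With reads counted singly, depth limited Snord genes below 0.183 RPM in Ia_high and 0.218 RPM in Ia_low, a bound not widened for copies.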

Other observations

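Below the mean of 50 RPM that the rule for named genes required, 4 genes, chosen after their values were seen, also had high ratios. Snord1a had 14 reads in Ia_high and 548 in Ia_low, a ratio of 46.7 (16.36 to 199). Snord15a had 18 and 563 reads (37.3, 14.6 to 128), Snord100 49 and 1228 (29.9, 16.7 to 58.8) and Snord72 24 and 301 (14.96, 6.20 to 43.6). In Ia_low 95.3%, 76.4%, 90.0% and 87.0% of their reads were over 30 nt, in that order, a length class that held 14.3% of all reads of that library and 1.63% of Ia_high. The hosts of Snord15a, Snord100 and Snord72 are the ribosomal protein genes Rps3, Rps12 and Rpl37.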
